A study of Rattus norvegicus with 18 samples.

Results

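Total liver denervation combined with partial hepatectomy (TDPH) was set against partial hepatectomy alone (PH) in rat liver at 2 h after the operation, on 3 TDPH arrays and 3 PH arrays of the 18 in the series. The arrays were chosen by their titles, and every probe set other than the manufacturer's controls was used. The rats were Sprague-Dawley animals, 12 weeks old, and a central piece of the right lobe was taken once the liver had been flushed of blood. The further groups, each with 3 arrays, were sympathectomy with PH (SPH), vagotomy with PH (VPH), sham operation, all at 2 h, and normal liver at 0 h. The labels give no transgene or drug in any group, and no group had its nerves cut without a hepatectomy. Within each group the arrays are labelled as technical replicates, and the labels do not give the number of animals behind them. The p-values and SDs below therefore measure the spread between arrays, and n counts arrays.

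The liver receives sympathetic fibres along the splanchnic nerves and parasympathetic fibres along the vagus. Noradrenaline from the sympathetic endings acts on adrenergic receptors of hepatocytes and is known for driving glycogen breakdown and glucose release, while vagal acetylcholine is known for favouring glycogen storage and for restraining inflammatory macrophages. In the first hours after hepatectomy, called the priming phase, the remnant liver switches on immediate early genes, cytokine signals and growth signals before any DNA is copied.

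The signals were deposited on a linear scale, and the trimmed mean was nearly the same on all arrays used here, 500.2 to 500.3. Median signal was 137.4, 135.5 and 146.3 on the TDPH arrays, against 128.7, 114.9 and 129.4 on the PH arrays. Actb, whose 3' over 5' signal rises as RNA breaks down, had a ratio of 1.95 to 2.05 on the TDPH arrays, against 1.65 to 1.85 on the PH arrays, and the Gapdh ratio was 1.28 to 1.32, against 1.2 to 1.23. The part of this difference in the results was not tested. Albumin (Alb), the main product of hepatocytes, had a signal of 38114 to 43526 on the TDPH arrays, against 41324 to 50248 on the PH arrays. Pairs of arrays within the TDPH group correlated at r of at least 0.9602, and TDPH arrays correlated with PH arrays at r = 0.9494 to 0.9532 (across probe sets, which are not independent replicates). Precision is limited by the number of arrays.

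Differences are given as TDPH minus PH on the log2(signal + 12) scale with their SE from limma, which understates the changes of dim genes, and adjusted p-values are Benjamini-Hochberg values over all 22103 probe sets tested. A gene is said to have risen or fallen where its adjusted p was under 0.05 and its difference at least 2-fold. By this rule 162 of 11487 genes differed between TDPH and PH (1.41%), of which 115 were higher in TDPH (1%) and 47 lower (0.409%). Over probe sets, with or without a gene name, 285 were higher (1.29%) and 80 lower (0.362%). This split depended on the scaling: after quantile normalization it was 156 higher and 104 lower, and with each array centred on its median 148 higher and 138 lower. The median difference over all probe sets was 0.11 as deposited, 0.003 after quantile normalization and -0.05 after centring, and over genes it was 0.06 as deposited. Of the called genes, 89 higher and 31 lower ones lay in the dimmer part of the genes, below a signal of 403.7 (2.09% called), and 26 higher and 16 lower ones lay above it (0.731% called). The 3 TDPH arrays lay wholly above or below the 3 PH arrays for 156 of the 162 called genes and for 37.7% of all genes tested. The plot of difference against level shows where the called genes lie.

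**Figure D1:**
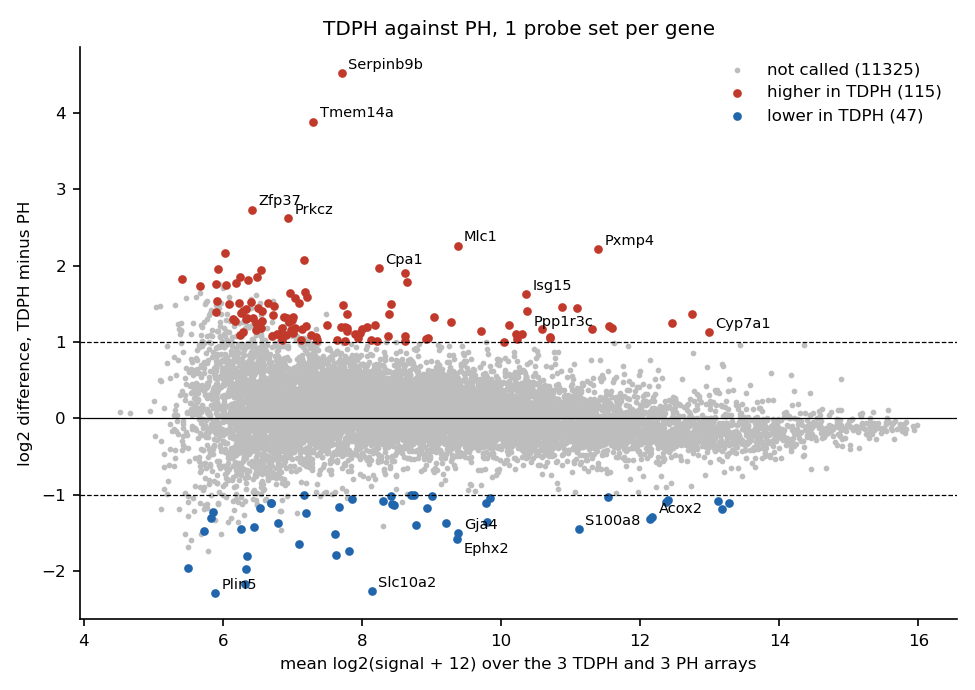
Each point is a gene, represented by its probe set with the highest mean signal; the x axis is its mean log2(signal + 12) over the TDPH and PH arrays and the y axis the difference TDPH minus PH. Red points are the 115 genes called higher in TDPH and blue points the 47 called lower; dashed lines mark the 2-fold limits, and the largest difference, 4.53, belongs to Serpinb9b.

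The largest rise in TDPH was that of Serpinb9b, a member of the serpin family of protease inhibitors. Its signal was 861, 827 and 1368 on the TDPH arrays, against 62.3, 22.4 and 20.4 on the PH arrays. The groups were far apart, with a difference of 4.53 ± 0.32 (adjusted p = 1.82e-08). The sham arrays stood at 879, 963 and 929.7, so the TDPH arrays lay at the sham level and the PH arrays far under it. SPH arrays gave 25.6 to 66.4 and VPH arrays 259 to 337. In the authors' deposited table, whose ratios are set against normal liver, the same probe set differed by 4.93 (log2) between TDPH and PH.

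Tmem14a, which encodes a small transmembrane protein, had signals of 656, 582 and 552 in TDPH, against 75.1, 10.8 and 22.7 in PH. All TDPH arrays were above all others in the series that were taken at 2 h: SPH reached 426 at most, VPH 60.1 and sham 48.2. The difference from PH was 3.89 ± 0.67 (adjusted p = 0.000343). Mlc1, a membrane protein best known from astrocytes, was also highest in TDPH, at 1580.3, 1523 and 1252, against 281, 343 and 256 in PH. No array of SPH, VPH or sham exceeded 639, and the difference from PH was 2.26 ± 0.26 (adjusted p = 5.14e-06).

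Pxmp4, a peroxisomal membrane protein, was the brightest of the leading genes. It had signals of 6017, 6061 and 5328 in TDPH, against 1153, 1157 and 1424 in PH, with 4879 to 5122 in VPH and 2888 to 3099.9 in sham. The groups did not overlap, the difference was 2.21 ± 0.18 (adjusted p = 1.42e-07), and a further probe set of the gene rose by 1.93. Prkcz, the atypical protein kinase C zeta, stood at 251, 257 and 389 in TDPH, against 54.2, 24.1 and 38.7 in PH. SPH (182 to 259.7), VPH (155 to 171) and sham (109.9 to 242) were all above the PH arrays too, and TDPH minus PH was 2.62 ± 0.27 (adjusted p = 1.86e-06). The secreted phospholipase Pla2g2d had 254, 259 and 347 in TDPH, against 59.2, 39.8 and 82.6 in PH, and it was highest in VPH at 789 to 918. Its rise was 2.07 ± 0.30 (adjusted p = 6.05e-05).

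Other large rises were those of Zfp37, a zinc finger protein (2.74 ± 0.50), Tgm3, a transglutaminase (1.95 ± 0.36), RT1-T24-3, a class I gene of the rat MHC whose signal may mix family members (1.91 ± 0.23), Mfng, a glycosyltransferase acting on Notch (1.85 ± 0.41), and Pou2f1, the octamer-binding transcription factor (1.85 ± 0.49). Most of these are dim in PH, and their differences shrank with a pseudocount of 90 in place of 12. It gave 2.47 for Tmem14a, 1.58 for Prkcz, 1.32 for Pla2g2d, 1.40 for Zfp37, 1.06 for Tgm3, 0.91 for Mfng and 0.96 for Pou2f1. Tmem117, also among the 15 largest rises (1.96 ± 0.66), lost its call under 13 of 15 alternatives.

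Cpa1, the pancreatic carboxypeptidase A, was called higher in TDPH as well. Its signals were 568, 476 and 741 in TDPH, 15.7 to 47.8 in SPH, 663 to 775 in VPH and 152, 176 and 104 in PH. TDPH and VPH thus stood above PH, SPH below it, and the difference from PH was 1.97 ± 0.24 (adjusted p = 1.28e-05). The other 11 pancreas markers tested in the list were not called, and the summed signal of all 12 was 14588 to 16049 in TDPH, against 16797 to 17322 in PH. Of the 12, 7 were above 0 and 5 below, the lowest being Reg1a (-1.11). Outside the list, the pancreatic protease gene Ctrl, named after its values were seen, was also called higher in TDPH (106.4, 134 and 106.02, against 20.7, 63.2 and 32.7 in PH; 1.41 ± 0.48, adjusted p = 0.0499). Whether pancreatic RNA has a part in the value of Cpa1 was not tested.

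Among the falls, Slc10a2 had the largest difference that held under every alternative. It encodes the apical sodium-dependent bile acid transporter, known in liver from bile duct cells. Its signals were 109, 155 and 94.6 in TDPH, against 634, 537 and 656 in PH, with 153 to 326 in SPH, 207 to 233 in VPH and 87 to 143 in sham. TDPH overlapped with sham and lay far below PH (-2.26 ± 0.24, adjusted p = 2.63e-06). PH alone stood 2.42 above sham.

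Pla2g2a, the secreted group IIA phospholipase of the acute phase, was 103, 70.9 and 113 in TDPH, against 391, 329 and 349.7 in PH. All SPH and VPH arrays (216 to 352) lay above the TDPH arrays, and TDPH differed from PH by -1.80 ± 0.27 (adjusted p = 0.000107), from SPH by -1.56 and from VPH by -1.22. Ephx2, the soluble epoxide hydrolase that degrades lipid epoxides, had signals of 318, 377 and 421 in TDPH, against 1203, 1146 and 1044 in PH. Every other 2 h array was above the TDPH arrays, with sham highest at 2042 to 2125. The difference from PH was -1.58 ± 0.24 (adjusted p = 0.000107), that from SPH -1.11 and that from VPH -1.64.

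Gja4, a connexin of arterial endothelium, showed signals of 417, 348 and 389.5 in TDPH, against 1122, 1132 and 1065 in PH. SPH was within the range of 293 to 454 and VPH of 520.3 to 622, so all denervated groups lay below PH. TDPH fell by 1.5 ± 0.18 on the log2 scale (adjusted p = 9.15e-06). Other falls were those of the endothelial transcription factor Sox18 (-2.18 ± 0.47), the sphingosine phosphate receptor S1pr3 (-1.96 ± 0.62), Fgf13, an intracellular member of the fibroblast growth factor family (-1.98 ± 0.43), and the epithelial transcription factor Grhl1 (-1.64 ± 0.41). With a pseudocount of 90 these became -1.0, -0.74, -0.96 and -1.04. The call of S1pr3 was lost under 8 of 15 alternatives, 5 of them with a single array left out. The fall of Hspb7, a small heat shock protein (-1.75 ± 0.34), was not shared by its other probe set (-0.28 ± 0.81). The plot of the genes with the largest differences gives their signals in all 2 h groups.

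**Figure D2:**
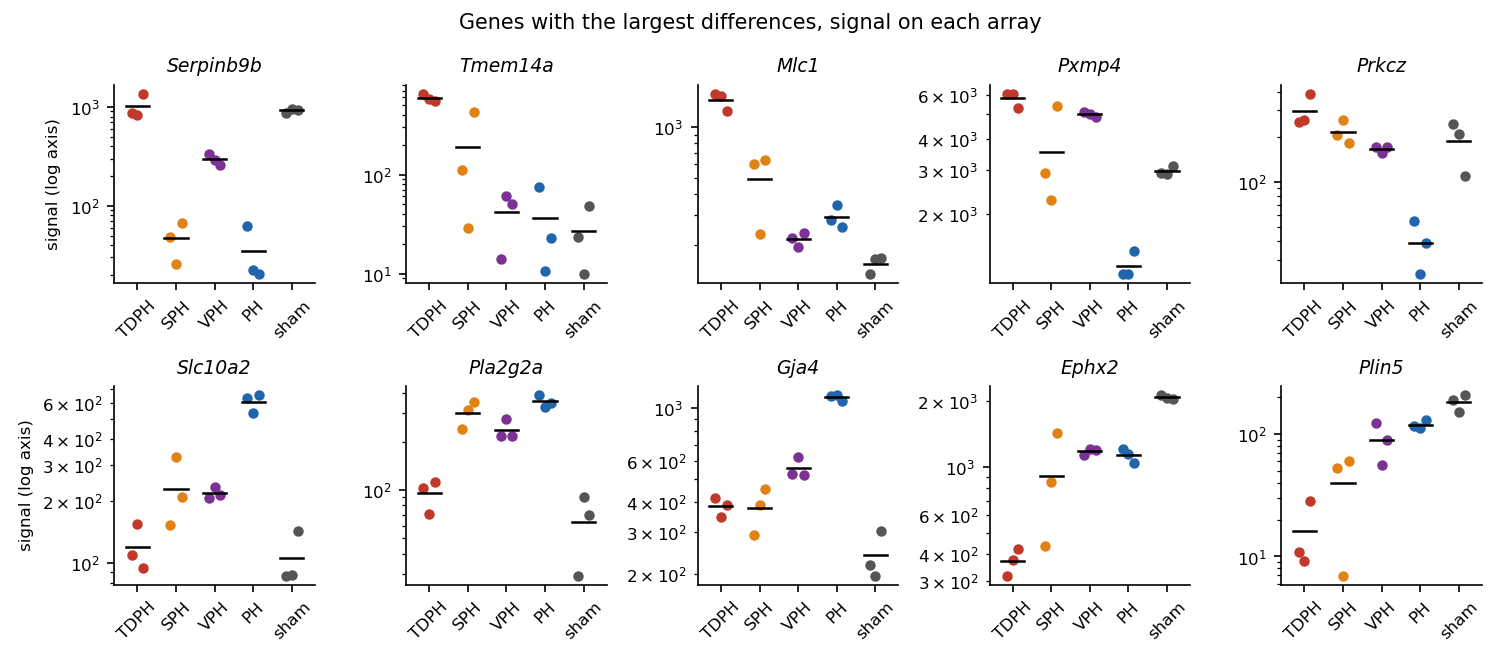
Signal (log axis) of 10 genes among the largest rises (top row) and falls (bottom row) on each of the 3 arrays of TDPH, SPH, VPH, PH and sham; points are arrays and bars group means. Serpinb9b lies between 827 and 1368 in TDPH and at no more than 66.4 in SPH, while Slc10a2 lies highest on the PH arrays, from 537 to 656.

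The first question about cut nerves concerns the molecules that read the nerve signal. Of 23 adrenergic, muscarinic and nicotinic receptor genes, 10 passed the filter on dim probe sets, and their median difference was 0.09. None rose (all genes: 1%) and 1 fell (all genes: 0.409%). The fall was Adra2c, an inhibitory adrenergic receptor (18.5, 45.9 and 14.7 in TDPH, against 73.3, 75.5 and 83.8 in PH). Its difference was -1.31 ± 0.44 (adjusted p = 0.0457), and the call was lost under 9 of 15 alternatives. The main adrenergic receptor of rat hepatocytes, Adra1b, had 2408, 2210.3 and 2333 in TDPH, against 1850.0, 2252 and 1833 in PH, and the groups overlapped (0.23 ± 0.15, adjusted p = 0.318).

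Of 28 genes for brakes and effectors of G protein signals, 2 rose (all genes: 1%) and none fell (all genes: 0.409%), median 0.075. They were Prkcz, given above, and Rgs3, which speeds the switching off of G proteins. Rgs3 had 539, 621 and 524 in TDPH, against 276, 215 and 288 in PH, while sham stood at 519 to 604. TDPH lay at the sham level and the difference from PH was 1.08 ± 0.20 (adjusted p = 0.000563); it was 0.92 after quantile normalization and 0.24 at the gene's other probe set. Of 29 receptors for neuropeptides, hormones and nerve growth factors, 2 rose (all genes: 1%) and none fell (all genes: 0.409%), median 0.055. Both were P2Y receptors, which respond to extracellular nucleotides. P2ry6 had 143, 124 and 147 in TDPH, against 41.6, 55.5 and 33.6 in PH, and P2ry1 had 144, 207 and 217 in TDPH, against 50, 78.8 and 105 in PH. Neither overlapped, with differences of 1.45 ± 0.24 (adjusted p = 0.000244) and 1.19 ± 0.29 (adjusted p = 0.0073), and a pseudocount of 90 ended both calls.

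Immediate early genes, which are transcribed within minutes of a stimulus without new protein, were in large part higher in PH than in sham. Of 49 tested, 26 were higher in PH than in sham (2.19% of all genes were) and none lower. Between TDPH and PH 1 of them rose (all genes: 1%) and none fell (all genes: 0.409%), with a median of 0.01. By adjusted p alone, 9 were higher and 7 lower in TDPH, against 10.6% higher and 11% lower among all genes. The gene that rose was Nr4a2, an orphan nuclear receptor induced by cAMP. It had 317, 312 and 332 in TDPH, 243 to 307 in SPH, 105 to 165 in VPH and 153, 110.4 and 143 in PH. TDPH and SPH thus lay above VPH and PH (TDPH minus PH 1.18 ± 0.21, adjusted p = 0.000551); a dimmer probe set of the gene differed by 0.69 (adjusted p = 0.286).

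Fos, a subunit of the AP-1 transcription factor, moved the other way without reaching 2-fold. Its signals were 1336, 1246 and 1293 in TDPH, 2004 to 2091 in SPH, 1354 to 1425 in VPH, 2411 to 2532 in PH and 321 to 443 in sham. The TDPH arrays lay well below PH (-0.93 ± 0.09, adjusted p = 1.28e-06) and still 1.68 above sham. Smaller differences were measured for Myc (0.36 ± 0.10), Btg2, an antiproliferative gene (-0.35 ± 0.05), Atf3 (0.34 ± 0.20), Nr4a1 (0.24 ± 0.21), Egr1 (-0.12 ± 0.04) and Jun (-0.08 ± 0.05).

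The 22 targets of cAMP and its transcription factor CREB had a median of 0.26, with 18 above 0. Of these targets Nr4a2 alone was called (all genes: 1.41%). By adjusted p alone 10 were higher and 4 lower, against 10.6% higher and 11% lower among all genes. Id2, an inhibitor of helix-loop-helix factors, had 2513, 2318 and 2076 in TDPH, against 1261, 1369 and 1338 in PH (0.79 ± 0.08, adjusted p = 1.09e-06). Ppargc1a, a coactivator of gluconeogenic and mitochondrial genes, had 492, 501 and 498 in TDPH, against at most 325 in PH, which missed the threshold (0.89 ± 0.31, adjusted p = 0.0515). The gluconeogenic enzyme genes G6pc1 (0.36 ± 0.07) and Pck1 (0.08 ± 0.04) were under 2-fold, and Igfbp1, a secreted binding protein of insulin-like growth factors, was slightly lower (-0.27 ± 0.04).

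The cytokine axis of the priming phase gave no called gene on the signals as deposited. None of 29 NF-kB targets and cytokines (median 0.15) and none of 40 genes of the IL6-STAT3 and acute phase axis (median -0.075) rose or fell. After quantile normalization 1 gene of the second list was called higher, as was 1 without TDPH replicate 3. Il6 itself did not pass the filter. Tnf was dim, at 74.6, 58.4 and 94 in TDPH, against 116, 105.5 and 20.7 in PH, with overlapping arrays (0.13 ± 0.51, adjusted p = 0.901). Il1a had the largest difference among the 29 NF-kB targets and cytokines tested (0.75 ± 0.10, adjusted p = 3.72e-05). Its signals were 908, 896 and 923 in TDPH, against 504, 529 and 579 in PH. Socs3, the feedback inhibitor of IL6 signals, was 0.44 ± 0.11 higher, while A2m, the acute phase macroglobulin of the rat, was lower (-0.54 ± 0.14). Hamp, which encodes the iron hormone hepcidin, had 30916, 31556 and 26052 in TDPH, against 14631, 15354 and 15134 in PH; at 0.97 ± 0.24 (adjusted p = 0.00762) it stayed just under 2-fold.

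Genes of the interferon response, an antiviral programme that type I interferons start through interferon regulatory factors and STAT proteins, made up the list with the most rises. Of 43 tested, 6 rose and none fell, where 1% of all genes rose and 0.409% fell. The median was 0.42, against 0.06 over all genes. By adjusted p alone 21 were higher and 1 lower, against 10.6% higher and 11% lower among all genes. The 6 were Mx1, a GTPase that blocks viral nucleoproteins, Isg15, a ubiquitin-like modifier, Irf7, a transcription factor that amplifies interferon output, Ifit3, an RNA-sensing complex member, Adar, an RNA editing enzyme, and Rsad2, the antiviral enzyme viperin. The list's median was 0.32 after quantile normalization and 0.26 with centred arrays, each with 4 rises, since Adar (0.89 in both) and Rsad2 (0.86 and 0.85) then fell short of 2-fold.

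Promoters of 4 of these genes were at hand in RefSeq (build GRCr8; 250 bases before to 50 after the gene start) and are shown because the genes rose together; Isg15 and Adar are named only. The letters GAAA, any 2 bases and again GAAA, a pattern that interferon regulatory factors bind, were searched on both strands. Capitals mark a match, here always the reverse complement. A match occurred in 1312 of all 33469 promoters (3.92%), in 23 of 34 promoters of tested interferon list members (67.6%) and in 3 of the 4 below. Irf7 is at chr1:205799974-205800273 (minus strand), Ifit3 at chr1:241527076-241527375 (plus strand), Rsad2 at chr6:48788071-48788370 (minus strand) and Mx1, with no match in this window, at chr11:50294557-50294856 (minus strand). The sequences run 5' to 3' along the gene, and a match describes the letters, not a bound site.
Irf7: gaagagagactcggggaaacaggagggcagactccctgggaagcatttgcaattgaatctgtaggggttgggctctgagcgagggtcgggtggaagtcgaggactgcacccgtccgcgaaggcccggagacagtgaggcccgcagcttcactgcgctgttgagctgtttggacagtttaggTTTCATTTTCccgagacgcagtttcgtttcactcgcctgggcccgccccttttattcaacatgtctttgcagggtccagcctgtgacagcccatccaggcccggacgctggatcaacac
Ifit3: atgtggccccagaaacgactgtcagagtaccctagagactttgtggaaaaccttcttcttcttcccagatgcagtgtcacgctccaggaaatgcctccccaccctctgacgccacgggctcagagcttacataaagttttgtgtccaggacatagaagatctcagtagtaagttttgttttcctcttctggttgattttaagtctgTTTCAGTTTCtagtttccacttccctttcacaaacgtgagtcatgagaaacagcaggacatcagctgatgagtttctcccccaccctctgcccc
Rsad2: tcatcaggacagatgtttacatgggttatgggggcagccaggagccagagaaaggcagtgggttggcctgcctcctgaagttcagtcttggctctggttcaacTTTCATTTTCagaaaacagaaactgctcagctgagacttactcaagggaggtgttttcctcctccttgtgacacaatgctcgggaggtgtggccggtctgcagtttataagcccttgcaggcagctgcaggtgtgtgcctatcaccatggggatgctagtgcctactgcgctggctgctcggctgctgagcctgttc
Mx1: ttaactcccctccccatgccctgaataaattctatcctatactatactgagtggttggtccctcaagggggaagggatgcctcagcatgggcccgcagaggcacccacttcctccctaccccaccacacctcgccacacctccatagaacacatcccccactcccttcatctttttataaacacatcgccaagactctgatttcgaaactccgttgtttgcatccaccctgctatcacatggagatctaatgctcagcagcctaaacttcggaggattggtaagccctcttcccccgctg

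Mx1, with no match in that window, had the largest difference of the list. Its signal was 774, 953 and 532 in TDPH, 399 to 567 in SPH, 542 to 616 in VPH, 223, 171 and 222 in PH and 256 to 311 in sham. All denervated arrays lay above all PH and sham arrays, with TDPH 1.79 ± 0.17 above PH (adjusted p = 8.09e-07). For Isg15 the TDPH arrays gave 2538, 2652 and 1802, SPH 1359 to 2154, VPH 2009 to 2064 and PH 802, 682 and 721. The order was the same, with TDPH 1.63 ± 0.14 above PH (adjusted p = 2.8e-07).

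Irf7, whose promoter match starts 69 bases upstream, had 2996, 3434 and 2912 in TDPH, 1231 to 2459 in SPH, 2079 to 2182 in VPH and 1096, 1151 and 1124 in PH. The TDPH arrays were above all others, 1.46 ± 0.15 over PH (adjusted p = 1.91e-06), 0.74 over SPH and 0.54 over VPH, the last 2 differences being under 2-fold. Ifit3 had 767, 1024 and 698 in TDPH, 666 to 1753 in SPH, 396 to 449 in VPH and 300.4 to 330.2 in PH. TDPH overlapped with SPH and lay above VPH and PH (1.32 ± 0.23 over PH, adjusted p = 0.000401). Rsad2 rose by 1.01 ± 0.20 and Adar by 1.04 ± 0.12, and a second probe set of Adar differed by 0.74.

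Cxcl9, a chemokine for T cells induced mainly by interferon gamma, belongs to the same list and was not called against PH. It had 929, 986 and 883 in TDPH, 691 to 1203 in SPH, 5604 to 5985 in VPH and 979, 983 and 1017 in PH. Only the VPH arrays stood high, and TDPH minus PH was -0.09 ± 0.15. Against VPH, 7 of the 43 interferon list members were lower in TDPH and none higher, where 1.09% of all genes were lower and 1.24% higher. Among them Cxcl9 had the largest difference (-2.61 ± 0.15). Set against PH, 10 of the 43 were higher in VPH and none lower (median 0.44). In SPH 4 were higher than in PH and 1 lower (median 0.26). Rises in this list were thus not particular to TDPH, and all 3 comparisons share the PH arrays.

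**Figure D3:**
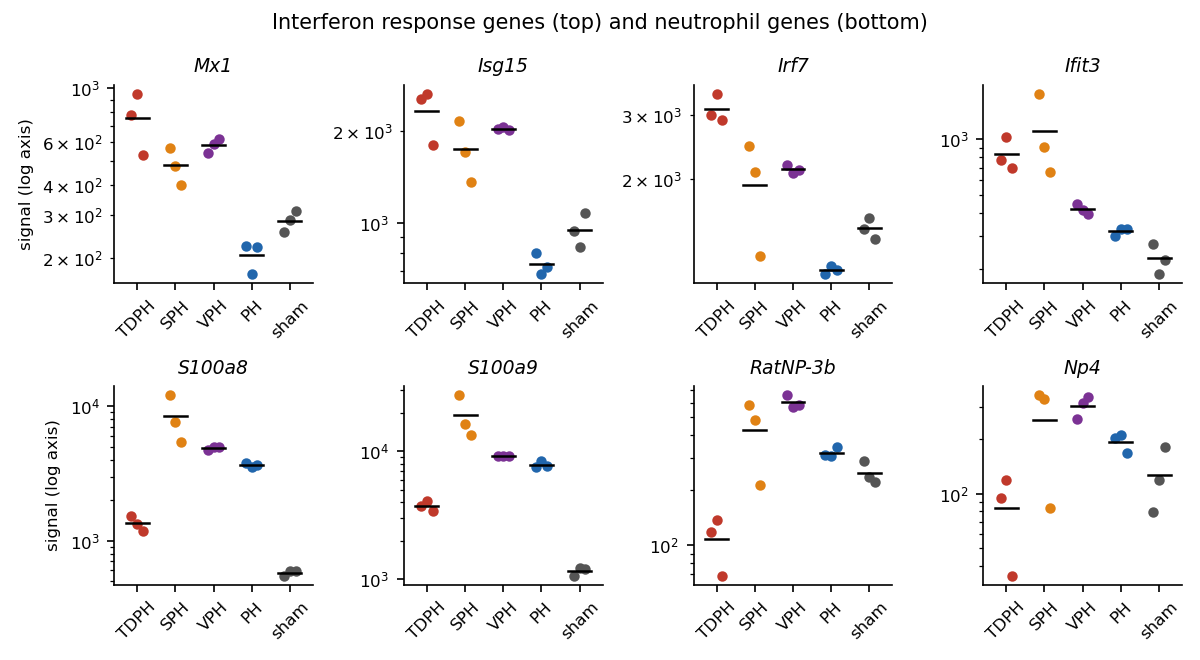
Signal (log axis) of 4 interferon response genes (top) and 4 neutrophil genes (bottom) on each of the 3 arrays of TDPH, SPH, VPH, PH and sham; points are arrays and bars group means. The TDPH arrays lie above the PH arrays in the top row and below them in the bottom row, where Np4 was not called.

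Neutrophil markers had a lower summed signal in TDPH than in any other hepatectomy group. Of 20 listed markers 12 were on the array and 10 passed the filter. Against PH 3 fell and none rose, with a median of -0.58, where 0.409% of all genes fell and 1% rose. S100a8, a subunit of calprotectin from the neutrophil cytosol, had 1527, 1326 and 1179 in TDPH, 5441 to 12117 in SPH, 4732 to 4982 in VPH, 3781, 3542 and 3678 in PH and 549.6 to 594 in sham. TDPH lay between sham and all other hepatectomy arrays, with -1.45 ± 0.17 against PH (adjusted p = 6.35e-06), -2.57 ± 0.17 against SPH and -1.86 ± 0.17 against VPH. Its partner S100a9 had 3704, 4059 and 3439 in TDPH, against 7527, 8355 and 7631 in PH (-1.07 ± 0.15, adjusted p = 6.05e-05), in the same order. After quantile normalization the S100a9 difference was -0.92 and no longer called.

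The neutrophil defensin RatNP-3b, which belongs to a multigene family, had 118, 138 and 68.5 in TDPH, against 313, 305 and 343 in PH. Here TDPH was below sham too (221 to 287), and the difference from PH was -1.52 ± 0.26 (adjusted p = 0.000381). Another defensin, Np4, missed the threshold (-1.24 ± 0.47, adjusted p = 0.0815), and Lcn2, which injured hepatocytes also make, did not differ from PH beyond the spread (0.12 ± 0.41, adjusted p = 0.882). The summed signal of the 10 markers was 6357 to 7553 in TDPH, 22010.4 to 47716 in SPH, 22246 to 22596 in VPH, 13741 to 14139 in PH and 2309 to 2558 in sham. In TDPH and PH most of this sum came from S100a8 and S100a9, so it says little about the other markers. Against SPH, where 0.653% of all genes were lower, 8 of the 10 were lower in TDPH, and against VPH, where 1.09% were, 5 of the 10. In whole tissue, fewer cells of a type and less of its RNA per cell cannot be told apart.

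Growth factors and their receptors gave 1 rise (all genes: 1%) and 1 fall (all genes: 0.409%) among 52 genes (median 0.03). The rise was Met, the receptor of hepatocyte growth factor, with 660.1, 572 and 438 in TDPH, against 222, 286 and 295 in PH. The groups did not overlap (1.02 ± 0.17, adjusted p = 0.000318), but the difference was 0.86 after quantile normalization or centring. The call of Met was lost under 7 of 16 alternatives, among them a pseudocount of 90 (0.85) and leaving out single arrays. Its ligand gene Hgf was dim on all arrays (0.12 ± 0.69). The fall was Ccn2, a matricellular growth factor, with 357, 297 and 296 in TDPH, against 798, 742 and 643 in PH. SPH (662 to 707) overlapped with PH, VPH (457 to 513) lay between, and TDPH minus PH was -1.17 ± 0.20 (adjusted p = 0.000308). Igfbp3 was lower as well (-0.86 ± 0.16), under 2-fold.

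Of 37 genes of S phase and mitosis 4 rose and none fell, where 1% of all genes rose and 0.409% fell. The median was 0.33, against 0.06 over all genes, and 32 were above 0, against 6500 of 11487 over all genes. With all genes binned by mean level, none of the 37 lay in the brightest bin. The median differences of the dimmest bins were 0.13, 0.14 and 0.17. The part of this shift with level in the median of the list was not tested. Dna2, a nuclease and helicase of DNA replication, had 77.5, 142 and 181 in TDPH, against 20.7, 22.8 and 14.1 in PH, and sham stood at 158 to 214. The PH arrays lay below all TDPH and sham arrays, and TDPH minus PH was 2.16 ± 0.40 (adjusted p = 0.000676). The others were the mitotic kinase Ttk (1.82 ± 0.54), the replication licensing factor Cdt1 (1.75 ± 0.46) and the mitotic kinesin Kif20a (1.16 ± 0.38), whose call was lost under 11 of 16 alternatives. All 4 were dim, with no TDPH signal above 181; a pseudocount of 90 left 1 of the 4 calls. Against sham, 9 of the 37 genes were lower in PH and none higher, where 1.91% of all genes were lower. No gene among 36 G1 cyclins and growth brakes was called (median 0.15), and Ccnd1, the cyclin of G1 entry, differed by 0.32 ± 0.09.

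Glycogen breakdown is the best-known action of sympathetic nerves in liver. Of 18 glycogen genes tested 1 rose (all genes: 1%) and none fell (all genes: 0.409%), with a median of 0.20. By adjusted p alone 7 were higher and 1 lower, against 10.6% higher and 11% lower among all genes. Ppp1r3c, which targets protein phosphatase 1 to glycogen and favours its synthesis, had 2137, 2338 and 1990.1 in TDPH, 179 to 382 in SPH, 1032 to 1062 in VPH, 764, 926 and 742 in PH and 3861 to 4236 in sham. TDPH was above every other hepatectomy array and below sham. It stood 1.40 ± 0.16 over PH (adjusted p = 6.95e-06), 3.08 ± 0.16 over SPH and 1.04 ± 0.16 over VPH, and a second probe set differed from PH by 1.18. Ppp1r3b, the liver subunit with the same function, had 1484, 1545 and 1572 in TDPH, 479 to 822 in SPH and 932, 963 and 1064 in PH (0.63 ± 0.13 over PH, adjusted p = 0.00177; 1.40 ± 0.13 over SPH).

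Regulators of hepatocyte identity and of drug metabolism were among the rises. Onecut1 (HNF6), a hepatocyte transcription factor, had 4573, 4564 and 4880.0 in TDPH, 559 to 1124 in SPH, 2023 to 2088 in VPH, 1925, 2229 and 1987 in PH and 3929 to 4234 in sham. The TDPH arrays were the highest of all 2 h arrays, 1.19 ± 0.15 over PH (adjusted p = 1.79e-05), 2.66 ± 0.15 over SPH and 1.18 ± 0.15 over VPH. Nr1i3 (CAR), a nuclear receptor of drug metabolism, had 482, 435 and 388 in TDPH, against 241, 149 and 160.5 in PH, with 86.5 to 286 in SPH and 179 to 201 in VPH. It was higher than in each of these groups, by 1.22 ± 0.26 over PH (adjusted p = 0.0025). With a pseudocount of 90 its difference from PH was 0.95 and not called. Hnf4a, the master regulator of hepatocyte genes, had 1572, 1871 and 1685 in TDPH, against 885, 794 and 797 in PH (1.04 ± 0.10, adjusted p = 9.1e-07). It dropped under 2-fold after quantile normalization (0.97) and centring (0.88), and its other probe set differed by 0.52. Of the 25 hepatocyte markers Hnf4a alone was called (all genes: 1.41%), and their median was -0.11.

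The list for bile acid synthesis and transport does not hold Slc10a2. Of its 29 tested genes 2 rose (all genes: 1%) and 1 fell (all genes: 0.409%), median -0.03. Cyp7a1, which sets the pace of making bile acids from cholesterol, had 11928, 11416 and 12478 in TDPH, 9201 to 10509 in SPH, 6798 to 6866 in VPH, 5332, 5719 and 5354 in PH and 9944 to 10221 in sham. TDPH was the highest group and PH the lowest without overlap, and TDPH minus PH was 1.12 ± 0.05 (adjusted p = 4.45e-11; 0.97 with centred arrays). The other rise was Hnf4a. The fall was Acox2, the peroxisomal oxidase of bile acid side chains and branched fatty acids, with 3013, 2913 and 2895 in TDPH, 6075 to 10237 in SPH, 12060.4 to 12346 in VPH, 7301, 7649 and 6763 in PH and 10553 to 11236 in sham. TDPH was the lowest of all groups (-1.29 ± 0.11 against PH, adjusted p = 2.07e-07; -1.45 ± 0.11 against SPH; -2.05 ± 0.11 against VPH).

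Fatty acid oxidation genes and targets of PPAR alpha, the nuclear receptor of fasting lipid use, lay mostly below 0. Of 42 tested 2 fell and none rose, where 0.409% of all genes fell and 1% rose. The median was -0.20, and 33 were below 0, against 4987 of 11487 over all genes. By adjusted p alone 25 were lower and 2 higher, against 11% lower and 10.6% higher among all genes. Besides Acox2, Plin5, a lipid droplet protein of oxidative tissues, fell (10.8, 9.13 and 28.3 in TDPH, against 116, 112 and 131 in PH). Its difference was -2.29 ± 0.47 (adjusted p = 0.00185), and -0.99 with a pseudocount of 90. Angptl4, a secreted inhibitor of lipoprotein lipase, had 3763, 4166 and 3632 in TDPH, 3891 to 4800.0 in SPH, 8329 to 8644 in VPH and 7082, 7368 and 7113 in PH. TDPH and SPH lay below VPH and PH (TDPH minus PH -0.90 ± 0.06, adjusted p = 2.13e-08, under 2-fold). Of the 42 genes 24 lie in the brightest 10% of all genes, whose own median was -0.16.

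The lists for cytosolic ribosomal proteins and the respiratory chain hold mostly bright genes too. Over all genes the median difference ran from 0.17 in the third of 10 bins by mean level to -0.16 in the brightest. All 42 ribosomal protein genes were below 0, with a median of -0.28, and all 42 lie in that bin. By adjusted p alone 39 of them were lower, against 11% of all genes, and none reached 2-fold. In the respiratory chain 47 of 48 genes were below 0, with a median of -0.25, and 39 lie in it. After quantile normalization, which gives all arrays the same distribution of signals, the medians were -0.135 and -0.127, and with centred arrays -0.44 and -0.40. Ndufb8, a subunit of complex I, was the only one to fall. It had 621, 529 and 623 in TDPH, against 1265, 1127 and 1489 in PH (-1.11 ± 0.11, adjusted p = 1.08e-06), while SPH stood at 644 to 782 and sham at 725 to 844. The part of the shift with level in these medians was not tested further.

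In lipid synthesis Gpam, the mitochondrial acyltransferase that starts triglyceride synthesis, was the only rise among 37 genes (all genes: 1%), median -0.03. It had 1593, 1615 and 1868 in TDPH, 1509 to 2292 in SPH, 781 to 809 in VPH and 720.2, 706 and 728 in PH. TDPH and SPH stood above all VPH, PH and sham arrays (1.22 ± 0.11 over PH, adjusted p = 3.58e-07), and a second probe set rose by 1.17. The sterol exporters Abcg5 and Abcg8, which work as a pair, were both lower without reaching 2-fold. Abcg5 had 556, 591 and 524 in TDPH, against 1043, 915 and 1358 in PH (-0.96 ± 0.10), and Abcg8 had 218, 216 and 194 in TDPH, against 448, 343 and 332 in PH (-0.79 ± 0.12). Against SPH, both passed 2-fold (-1.17 ± 0.10 and -1.19 ± 0.12).

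**Figure D4:**
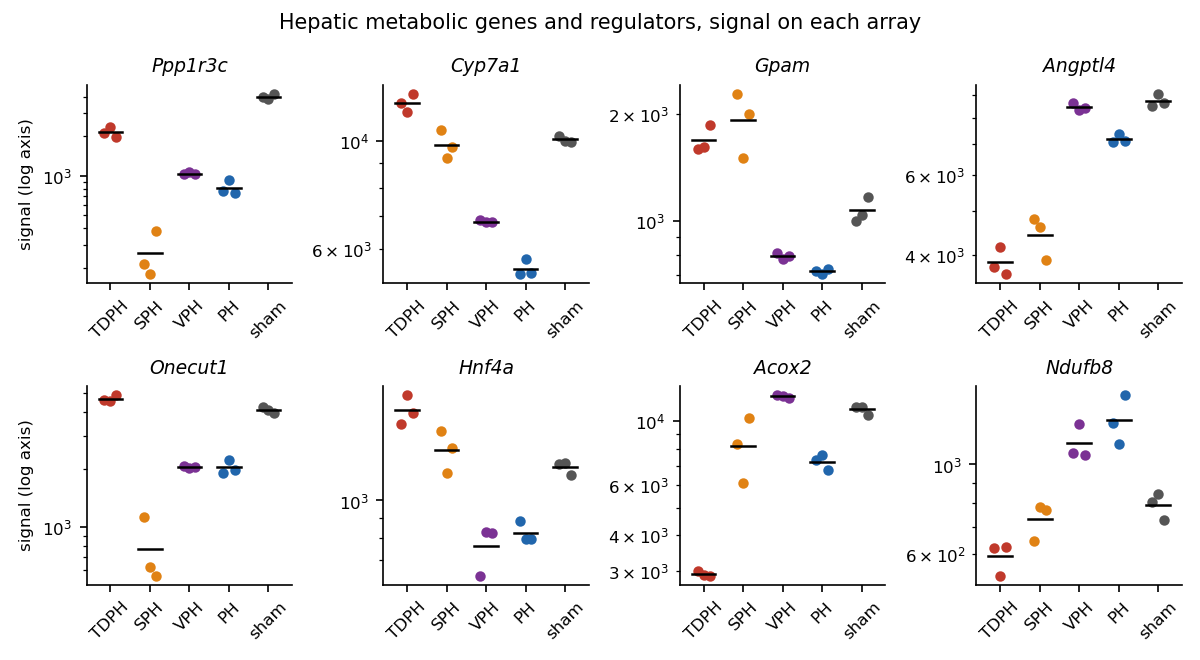
Signal (log axis) of 8 genes of glycogen, bile acid and lipid metabolism, hepatocyte regulation and the respiratory chain on each of the 3 arrays of TDPH, SPH, VPH, PH and sham; points are arrays and bars group means. Ppp1r3c and Onecut1 are lowest in SPH and higher in TDPH than in PH, while Acox2 is lowest in TDPH.

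Falls and no rises were found among matrix genes and stellate cell markers. Of 36 genes for extracellular matrix and proteolysis 2 fell and none rose (median -0.20). Of 18 stellate cell and fibroblast markers 2 fell and none rose (median -0.28). Over all genes 0.409% fell and 1% rose. Col1a2 is in both lists, so the genes that fell were Cemip2, Col1a2 and Reln. Cemip2, a hyaluronan-degrading enzyme, had 363, 382 and 325 in TDPH, against 965, 887 and 965 in PH, and only 32.3 to 52.1 in sham. TDPH lay between sham and PH (-1.37 ± 0.21 against PH, adjusted p = 0.0001). The collagen gene Col1a2 had 86.8, 52.9 and 122 in TDPH, against 205, 209.5 and 225 in PH (-1.24 ± 0.26, adjusted p = 0.00221), and Reln, a marker of hepatic stellate cells, had 177, 111 and 168, against 325, 333 and 309.9 in PH (-1.06 ± 0.18, adjusted p = 0.000334). Neither overlapped, but without TDPH replicate 2 both calls were lost (-0.97 for Col1a2 and -0.86 for Reln), and the other Col1a2 probe set differed by -0.14. Col3a1 (-0.74 ± 0.11) and Sparc (-0.94 ± 0.13) were lower under 2-fold. The summed signal of the stellate cell markers was 4641 to 5116 in TDPH, against 6617 to 7313 in PH. Bright members such as Vim (-0.48) weigh most in this sum. Of the 18 stellate cell markers 13 were below 0 and 5 above, the highest being Gfap (0.80).

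Among other cell types, macrophage markers showed 1 rise (all genes: 1%) and no fall (all genes: 0.409%) in 16 genes (median -0.05). Mpeg1, a perforin-like protein of macrophages, had 3658, 4296 and 3456 in TDPH, 3481 to 4033 in SPH, 2136 to 2263 in VPH, 1636, 1618 and 1786 in PH and 1555 to 1592 in sham. TDPH and SPH overlapped and lay above the rest (1.17 ± 0.07 over PH, adjusted p = 5.91e-09). No member was called among 23 lymphocyte, 15 endothelial, 8 cholangiocyte, 12 neuron and Schwann cell and 11 mesothelium, muscle and fat markers. Their medians ran from -0.09 for cholangiocytes to 0.12 for neuron and Schwann cell markers. Genes of these cell types outside the lists were called, such as Sox18 and Gja4 of endothelium, given above. Of B and plasma cell genes, named after their values were seen, the immunoglobulin gene IgG-2a had 5872, 5990.1 and 6534 in TDPH, against 14216, 14132 and 13532 in PH (-1.19 ± 0.15, adjusted p = 1.54e-05). Mzb1, a chaperone of antibody assembly, had 197, 224 and 247 in TDPH, against 463, 548 and 484 in PH (-1.12 ± 0.13, adjusted p = 5.14e-06). The plot of gene lists sets the members of 18 lists side by side.

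**Figure D5:**
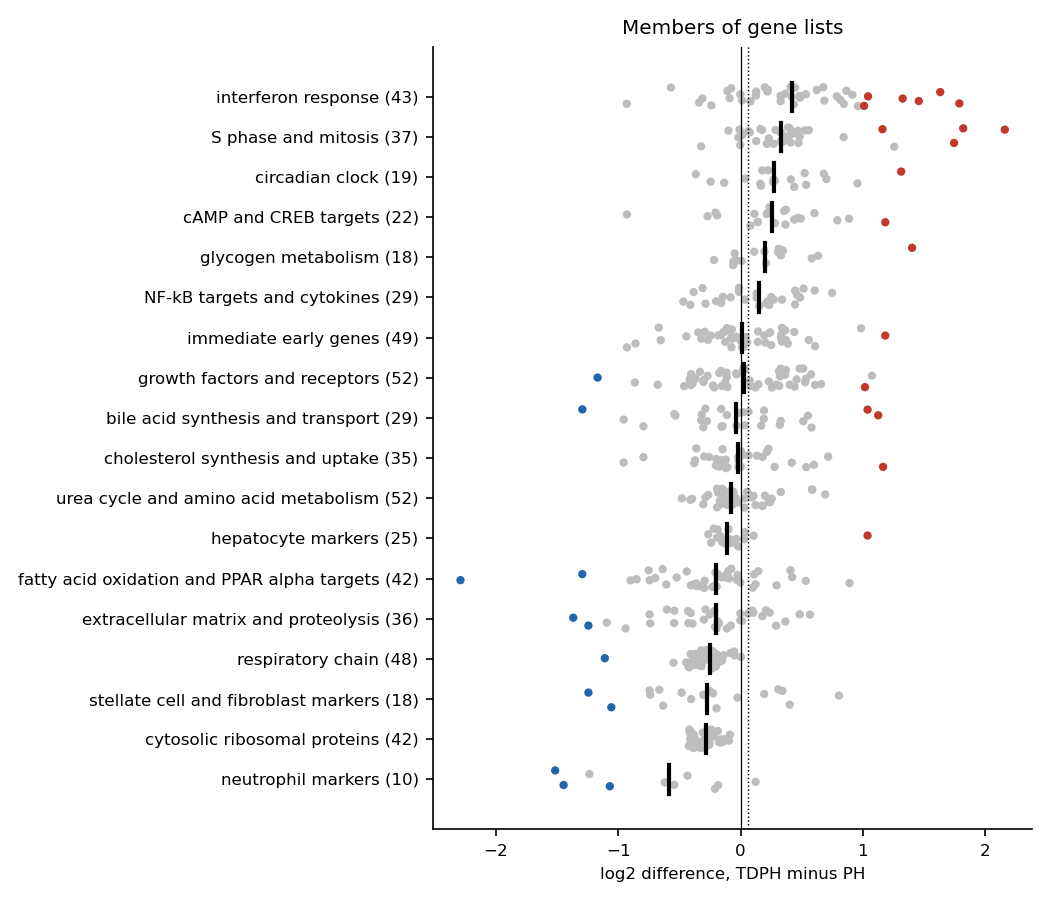
Each point is a tested member of a gene list, placed by its difference TDPH minus PH on the log2(signal + 12) scale; red points rose, blue points fell and grey points were not called. Black bars mark list medians, from 0.42 for the interferon response to -0.58 for neutrophil markers, the dotted line marks the median of all genes (0.06), and numbers in brackets count the genes tested.

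Total denervation was also compared directly with each single nerve cut, in differences that hold no PH array but share the TDPH arrays with each other and with the comparison above. Against SPH 172 genes differed (1.5%), 97 higher (0.844%) and 75 lower (0.653%) in TDPH, and against VPH 268 (2.33%), 143 higher (1.24%) and 125 lower (1.09%). The median over all genes was 0.04 against SPH and -0.02 against VPH. The SPH arrays were the least alike of the groups (median SD of log2 signal 0.234, against 0.172 in TDPH and 0.159 in VPH), and single SPH arrays moved some values. For example, Acox2 ranged from 6075 to 10237 and S100a8 from 5441 to 12117 within SPH.

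The largest rises over SPH were those of Serpinb9b (4.15 ± 0.32), Cpa1 (3.79 ± 0.24), Ppp1r3c (3.08 ± 0.16), Zfp37 (2.92 ± 0.50), Onecut1 (2.66 ± 0.15) and Pou2f1 (2.59 ± 0.49). For Cpa1, Onecut1 and Ppp1r3c, SPH itself was lower than PH, by -1.82, -1.47 and -1.67, while TDPH was higher. The falls below SPH included S100a8, S100a9 and Il1r2, the decoy receptor of interleukin 1 found on neutrophils. Il1r2 had 129.9, 200.03 and 197 in TDPH, against 1720.1, 812 and 726 in SPH (-2.46 ± 0.37, adjusted p = 0.000111), and its difference from PH (253 to 283) was -0.62 (adjusted p = 0.287). Chi3l1, a chitinase-like protein of inflammation, had 210.3, 233 and 274 in TDPH, against 881 to 1500.0 in SPH and 700.3 to 841 in VPH, lower than both (-2.23 ± 0.20 and -1.62 ± 0.20). Nr4a1, an immediate early nuclear receptor, had 3206, 3302 and 3160.4 in TDPH, against 9385, 7291 and 8951 in SPH (-1.39 ± 0.21, adjusted p = 0.000111).

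Against VPH the largest rises included Tmem14a (3.63 ± 0.67), Mlc1 (2.68 ± 0.26) and Obp3, an odorant-binding protein of male rat liver whose probe set may bind related family members. Obp3 had 23263, 24771 and 19456 in TDPH, against 3739, 3991 and 4126 in VPH and 15126, 14428 and 15624 in PH (2.5 ± 0.23 over VPH, adjusted p = 1.78e-07). Cxcl9 had the largest fall below VPH, and Lcn2 and an MHC gene were also among the 6 largest. Lcn2 had 1156, 1251 and 1052 in TDPH, against 6476 to 6574 in VPH (-2.49 ± 0.41), and RT1-T24-4 had 559.6, 497 and 511, against 3241, 3286 and 2994 in VPH (-2.58 ± 0.29). Of 23 MHC genes 9 were lower in TDPH than in VPH and none higher, and of 23 lymphocyte markers 8 were lower and none higher (1.09% of all genes were lower). The summed signal of the lymphocyte markers was 5401 to 5844 in TDPH, 9824.5 to 10189.6 in VPH and 4973 to 5397 in PH.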

How the data were processed

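Liver RNA was hybridised to Affymetrix Rat Genome 230 2.0 arrays, and the authors deposited a signal intensity per probe set, made with GCOS 2.0 per the submitters' processing notes. The authors also deposited log2 ratios against normal liver, which were used only where named. A further 18 signal columns of the second table were not used.

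Signals were turned into log2(signal + 12). A probe set was kept where 3 or more arrays had it over their own 40th percentile, which left 22103, and all 18 arrays in 6 groups were fitted with limma 3.58.1 in R 4.3.3 (lmFit, eBayes with trend, Benjamini-Hochberg). In simulated data 70% of changes of 1.5 and 92% of changes of 2.5 (log2) were recovered for TDPH against PH, with 7 false calls. The simulated noise was independent between arrays and probe sets and had the spread found within groups. It held no spread between animals, no shift with level and no difference in scaling. The 7 false calls therefore give no rate of false calls for the real comparison. Of 31099 probe sets 19914 had 1 gene symbol in the platform annotation, 343 several and 10842 none. A gene is represented by its probe set of highest mean.

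Named were the 15 largest rises and falls whose arrays did not overlap, called members and up to 4 of the largest differences of 47 gene lists, 24 fixed genes, and the 6 largest differences each way from SPH and VPH. The members, lists and tests were chosen with earlier results of these data known. Some results are not reported here.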

Additional observations from a re-analysis of the deposited data

Results flagged for a closer look

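The genes here were picked because TDPH and SPH both differed from PH by the call rule and in opposite directions, so the size of TDPH minus SPH follows from the choice and is given as a description. There were 5 such genes. S100a8 differed by -2.57 between TDPH and SPH, being -1.45 from PH in TDPH and 1.12 in SPH. S100a9 differed by -2.29, with -1.07 in TDPH and 1.22 in SPH. Cpa1 differed by 3.79, with 1.97 in TDPH and -1.82 in SPH. Onecut1 differed by 2.66, with 1.19 in TDPH and -1.47 in SPH. Ppp1r3c differed by 3.08, with 1.40 in TDPH and -1.67 in SPH. Both differences from PH share the PH arrays, and the cause of the opposite directions was not tested.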

How the results depend on the processing

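Of 67 named genes called between TDPH and PH, all kept their direction under every alternative run, and 19 kept their call under all of them. The call was lost by 44 genes in a test against 1.5-fold (treat), by 28 with a pseudocount of 90, by 13 with centred arrays, by 12 after quantile normalization and by 22 when an array was left out. Probe sets higher in TDPH than in PH numbered 285, and 64 with a pseudocount of 90, 159 with a 60th percentile filter, 156 after quantile normalization, 148 with centred arrays and 42 with treat. Those lower numbered 80, and 36 with a pseudocount of 90, 138 with centred arrays and 18 with treat. Against SPH 246 were higher (62, 147, 112 and 41 with a pseudocount of 90, the stricter filter, a fit of the compared groups alone and treat) and 120 lower (61 with a pseudocount of 90 and 32 with treat). Against VPH 430 were higher (112, 247 and 115 with a pseudocount of 90, the stricter filter and treat) and 194 lower (78 with a pseudocount of 90 and 73 with treat). Leaving out 1 array gave 212 to 319 higher and 69 to 99 lower against PH, 180 to 349 and 94 to 130 against SPH, and 353 to 534 and 145 to 203 against VPH. Arrays of the same replicate number did not deviate together between TDPH and PH (r = -0.027, 0.029 and 0.018 across probe sets). The fit with a replicate block gave 287 higher and 79 lower against PH, 251 and 120 against SPH, and 426 and 192 against VPH; it ended the calls of Adra2c and Kif20a.

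Only uncalled genes changed sign. Jun was 0.0812 and Egr1 0.0121 after quantile normalization, and Pck1 -0.0754 with centred arrays. Tnf was -0.011 after quantile normalization and -0.0244 with centred arrays, and Hgf -0.0145 and -0.0331. With single arrays left out Chrm3 ranged from -0.0453 to 0.828, Tnf from -0.505 to 0.481 and Hgf from -0.337 to 0.731. The cause of these moves was not tested. Genes with signals near the pseudocount of 12 are limited by their low signal, and technical replicates hold no spread between animals.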

Other observations

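Iron and heme genes held 1 fall (all genes: 0.409%) and no rise (all genes: 1%) among 34 (median -0.07). Tfrc, the transferrin receptor, had 5936, 6059.9 and 6433 in TDPH, against 12208, 14042 and 12715 in PH, and sham stood at 7497 to 7839. TDPH lay below PH and sham (-1.08 ± 0.10 against PH, limma adjusted p = 6.41e-07). The difference from PH was -0.92 and not called after quantile normalization, and -0.99 and not called at a second probe set. Alas1, the first enzyme of heme synthesis, had 15924, 14966 and 15603 in TDPH, against 7901, 7973 and 7974 in PH, while SPH stood at 4897 to 8350.2. It was higher in TDPH than in PH by 0.96 ± 0.11, under 2-fold, and 1.25 ± 0.11 higher than in SPH.

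Stress genes gave single rises. Chac1, a glutathione-degrading enzyme of the integrated stress response, had 1225, 1178 and 1290.5 in TDPH, 1056 to 1388 in SPH, 545 to 605 in VPH and 548, 528 and 581 in PH. TDPH and SPH overlapped and lay above VPH and PH (1.14 ± 0.12 over PH, limma adjusted p = 2.37e-06). Srxn1, a target of the oxidative stress factor NRF2, had 1743, 1709 and 1717 in TDPH, 1698 to 1954 in SPH, 1176 to 1249.5 in VPH, 862, 832 and 708 in PH and 142 to 218 in sham. TDPH again overlapped with SPH and lay above VPH and PH (1.10 ± 0.12 over PH, limma adjusted p = 4.44e-06). With centred arrays both differences were under 2-fold, at 0.98 for Chac1 and 0.94 for Srxn1. They were the only called members of their lists, which held 40 and 37 tested genes with medians of 0.04 and -0.085. Over all genes 1.41% were called.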
